A study of Homo sapiens with 4 samples.

Results

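The IGF2BP, LIN28B and IGF oncofetal axis was examined in cells of DLD-1, a line established from a human colorectal adenocarcinoma. Its members are 10 genes known as partners of HMGA2 or of the let-7 microRNAs: the RNA-binding proteins IGF2BP1, IGF2BP2, IGF2BP3 and LIN28B, the growth factor IGF2, the long non-coding RNA H19, the receptors IGF1R, IGF2R and INSR, and the microRNA-processing enzyme DICER1. Members were every probe that the platform annotation assigns to 1 of these genes and to no other gene, which gave 13 probes for 9 genes among the 31741 probes of the array. IGF2 had no such probe, because its 3 probes are also assigned to the INS-IGF2 readthrough gene, and it was not analysed here. The arrays labelled HMGA2 carried RNA from untreated DLD-1 cells stably transfected with a tGFP-tagged pCMV6-HMGA2 plasmid, in which a viral promoter drives the inserted gene. The arrays labelled vector carried RNA from cells given pCMV6-AC-GFP. Clones of both lines had been selected in G418 at 1 mg/mL and were kept in 0.5 mg/mL, and how many clones each line comprises is not stated. Each group had 2 single-colour arrays, and nothing in the labels says whether its 2 RNAs came from separate cultures. The error behind each p-value may for that reason be purely technical.

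The axis links fetal growth to post-transcriptional control. LIN28B binds let-7 precursors and blocks their maturation, DICER1 cuts the same precursors, and mature let-7 represses HMGA2, IGF2BP1 and LIN28B. The IGF2BP proteins bind mRNAs, including those of IGF2 and MYC, and affect their stability and translation. IGF2 signals through IGF1R and INSR and is cleared by IGF2R, and in fetal tissue H19 is made from the maternal copy of the locus whose paternal copy makes IGF2.

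Median intensity was 649 and 607 on the arrays labelled HMGA2, against 698 and 767 on those labelled vector. Across the 23806 probes that were bright enough to test, log2 intensities correlated at r = 0.991 between the HMGA2 arrays, 0.988 between the vector arrays and 0.957 to 0.960 across the groups. The first vector array held 639 probes at or below 0, and each of the other 3 arrays held at most 9. HMGA2, the gene the plasmid carries, was not uniformly higher on the arrays labelled HMGA2. One probe read 3917 and 4369 there, against 5576 and 5270 on the vector arrays (log2 -0.39, SE 0.10, limma adjusted p = 0.018, and -0.19 with adjusted p = 0.12 after quantile normalization). The other read 4596 and 3466, against 2728 and 3493 (log2 0.37, SE 0.17, limma adjusted p = 0.129). This second probe gave 0.59 after quantile normalization (adjusted p = 0.052), and passed as a rise with array medians subtracted (0.59, adjusted p = 0.00591), where the first gave -0.17 (adjusted p = 0.406). The labels and files do not place these probes relative to the tagged coding sequence, and each direction below rests on the labels. Of 12 colon epithelium markers, 11 had a probe and all 11 were tested. The summed intensity of those 11 was 530970 and 539301 on the HMGA2 arrays, against 488782 and 464567 on the vector arrays. Of the 11, 3 rose (EPCAM, CDH1 and VIL1), 4 fell (KRT20, KRT8, CDX2 and LGALS4) and 4 were not called. Their median log2 difference was -0.24, opposite in sign to the difference in the sums, and EPCAM alone read 290962 and 281091, against 243656 and 234684. After quantile normalization 5 rose and 4 fell, with a median of -0.042, and with array medians subtracted 4 rose and 3 fell. Without the first HMGA2 array, and likewise without the second vector array, 1 rose. Of 8 fibroblast markers, 5 were tested, and COL1A1 fell as deposited (log2 -0.43), while PDGFRB (0.77) and LUM (0.54) rose, and COL1A1 was not called, after quantile normalization. Their sum over all 8 was 5475 and 4605 on the HMGA2 arrays, against 5206 and 6476 on the vector arrays. Of 5 endothelial markers, 4 were tested and 0 were called as deposited, and TEK rose after quantile normalization (0.65), with sums of 2453 and 2222, against 2316 and 2605. Of the 5 leukocyte markers with a probe, CD68 rose (0.62) and CD14 fell (-0.69), and PTPRC, CD3E and LYZ were too dim to test, with sums of 5125 and 4403, against 5918 and 6287. The part of any such cells in the results was not tested. Beside these marker counts, 14.1% of all 14751 genes tested rose and 27.0% fell as deposited, each gene read by its brightest probe. After quantile normalization 26.4% rose and 21.8% fell, and with array medians subtracted 3789 genes rose and 2504 fell.

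The main changes in the axis were lower IGF2BP3, H19 and IGF2R on the arrays labelled HMGA2. IGF2BP3 stood at 52.4% of its vector level, H19 at 43.9% and 31.7% on its 2 probes, and IGF2R at 63.5%. IGF2BP2 and DICER1 did not pass the test, and IGF1R gave a higher value on one of its probes that narrowly missed it. IGF2BP1, INSR and 1 of the 2 LIN28B probes were too dim to test on these arrays. In all, 9 probes of 7 genes were tested and 4 probes of 3 genes passed an adjusted p of 0.05, all as falls. That is 44.4% of the tested member probes, beside 39.2% of all 23806 probes, and 26.7% of all probes passed as falls. The members' share was therefore close to that of the whole array.

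**Figure D1:**
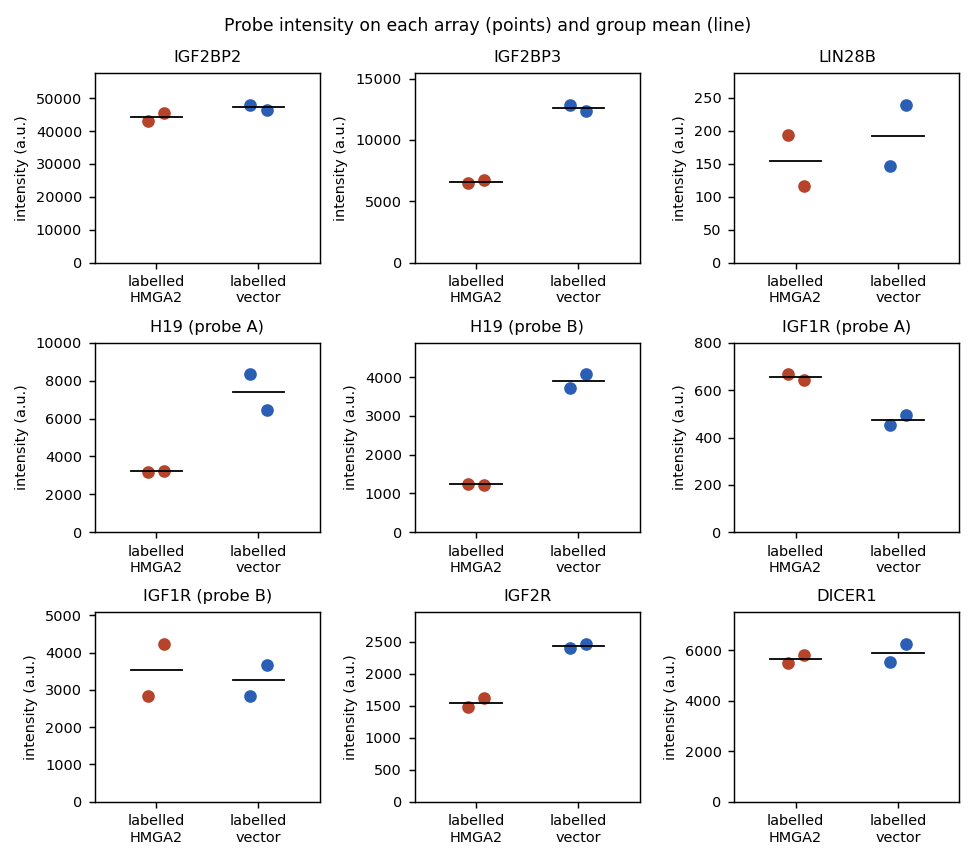
Deposited intensity (arbitrary units, linear axis from 0) of the 9 tested member probes. Points are single arrays, arrays labelled HMGA2 on the left and vector on the right, and lines are means of 2 arrays. The groups stood clear of each other for IGF2BP3, both H19 probes, IGF1R probe A and IGF2R, lay close together for IGF2BP2, and overlapped for LIN28B, IGF1R probe B and DICER1.

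The groups did not overlap in 6 of the 9 tested member probes, beside 67.9% of all tested probes. Non-overlap alone was thus common on these arrays. With 2 arrays a group, the smallest two-sided p of an exact permutation test is 0.333, and limma was used because it borrows the error estimate from all probes.

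The direction of many calls elsewhere depended on how the arrays were scaled. As deposited, 31.9% of calls over all probes were rises, against 52.8% after quantile normalization and 58.2% after subtraction of array medians. The median difference over all tested probes was -0.10, 0.07 and 0.12 log2 under the same 3 scalings. The falls of IGF2BP3, H19 and IGF2R passed under all 3. After quantile normalization 5 of the 9 member probes were called, the 4 falls and 1 rise, beside 47.1% of all probes, 24.9% as rises and 22.2% as falls. With array medians subtracted the members' count was again 4 falls and 1 rise, beside 41.9% of all probes, 24.4% as rises and 17.5% as falls.

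**Figure D2:**
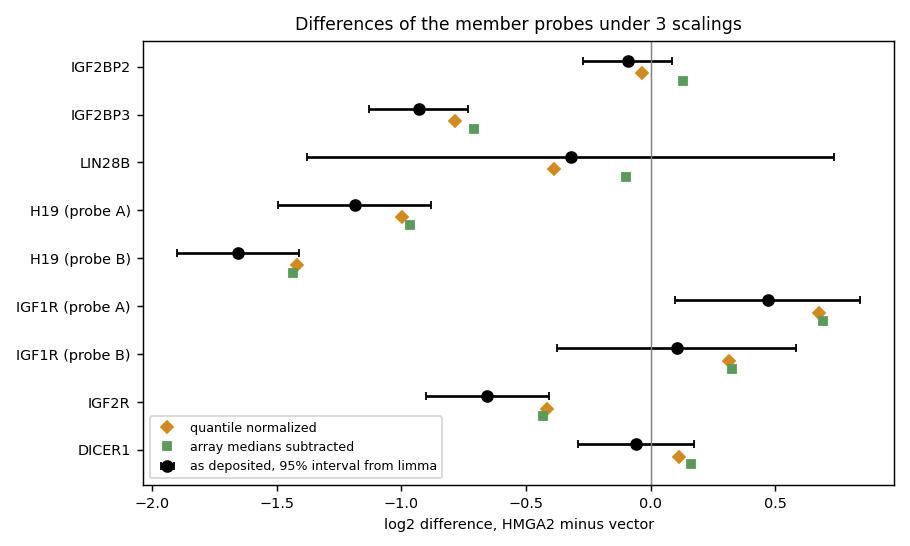
Log2 difference, HMGA2 minus vector, of the 9 tested member probes. Circles with bars are the deposited values with limma's 95% interval, diamonds the values after quantile normalization and squares those after subtraction of array medians. IGF2BP3, H19 and IGF2R lay below 0 under each scaling, whereas IGF2BP2 and DICER1 changed side with the scaling.

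Among the RNA-binding proteins, IGF2BP3 fell. This fetal member of the family is absent from most adult tissues and is made again in many carcinomas. Its probe read 6481 and 6735 on the HMGA2 arrays, against 12868 and 12332 on the vector arrays. The arrays of each group lay within 0.06 log2 of each other, and both HMGA2 arrays stood far below both vector arrays. The means were 6608 ± 180 and 12600 ± 379 (SD, n = 2 each), and the log2 difference was -0.93 (SE 0.08, 95% interval -1.13 to -0.73, limma adjusted p = 0.000209). After quantile normalization it was -0.78 (adjusted p = 0.0012). In size, this difference was exceeded by 12.01% of all tested probes.

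The IGF2BP3 promoter is shown because this was the IGF2BP gene whose transcript changed. The stretch is chr7:23470442-23470741 of GRCh38.p14, minus strand, from RefSeq, and covers 250 bases before and 50 after the transcription start. Capitals mark runs of at least 5 A or T letters, the kind of sequence to which the AT-hooks of HMGA proteins bind in the minor groove.
IGF2BP3: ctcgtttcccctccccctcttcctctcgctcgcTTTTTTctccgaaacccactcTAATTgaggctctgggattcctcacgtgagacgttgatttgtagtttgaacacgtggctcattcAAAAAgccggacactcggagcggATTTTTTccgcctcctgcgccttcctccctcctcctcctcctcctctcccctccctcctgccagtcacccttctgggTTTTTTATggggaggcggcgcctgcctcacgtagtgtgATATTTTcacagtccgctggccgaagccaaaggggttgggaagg

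It holds 6 such runs, the longest of 8 letters, and is 43.7% A or T, against a median of 41.3% over 35116 promoters in the same table. At least 1 such run is found in 76.5% of those promoters, so its presence does not set this one apart. Motifs were searched on both strands. The TATA motif TATAAA is found in 11.5% of all promoters, the box named CCAAT in 34.6% and the GC box GGGCGG in 45.0%, and each occurs 0 times here. Such A or T runs also occur in members that were not called. For IGF2BP2, 1 window holds 12 runs, the longest of 15 letters, and another holds 0. The LIN28B windows hold 0 and 9 runs and those of DICER1 from 2 to 11. That of IGF2R, which fell, holds 0. These matches are descriptions of the letters only, and no binding was measured.

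IGF2BP2, the member of the family that remains expressed in adult tissues, was bright and gave nearly the same values in both groups. Its probe read 43167 and 45562 on the HMGA2 arrays, against 48001 and 46523 on the vector arrays. Both HMGA2 arrays were slightly below both vector arrays, by a margin near the gap between replicates. The log2 difference was -0.09 (SE 0.08, limma adjusted p = 0.39), with a 95% interval from -0.27 to 0.09. It was -0.033 after quantile normalization and 0.13 after subtraction of array medians. A fall as large as that of IGF2BP3 lies outside the interval of the deposited values. The difference between the IGF2BP2 and IGF2BP3 changes was not tested.

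IGF2BP1, a let-7 target in fetal cells, read 206 and 107 on the HMGA2 arrays, against 114 and 152 on the vector arrays. The groups overlapped. Its mean of 7.13 log2 lay below 7.39 log2, the 25th percentile of all probes, which was the limit for testing. Its level could therefore not be compared between the groups.

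LIN28B, which keeps let-7 precursors from maturing, was at the bottom of the measurable range on both probes. The probe that was tested read 193 and 116 on the HMGA2 arrays, against 146 and 239 on the vector arrays, and the groups overlapped. Its mean level is itself the 25th percentile of all probes, so it was the dimmest probe admitted. The log2 difference was -0.32 (SE 0.45, 95% interval -1.38 to 0.74, limma adjusted p = 0.621). That interval spans changes in either direction, and a difference was not detectable at this brightness. Among the 500 tested probes nearest to it in level, the median gap between replicates was 0.50 log2 on the HMGA2 arrays and 0.41 on the vector arrays. For the 500 nearest to IGF2BP3 the gaps were 0.12 and 0.08. The dimmer LIN28B probe read 88 and 38 on the HMGA2 arrays, against 38 and 66 on the vector arrays, and was not tested. LIN28A, the paralog that acts in embryonic stem cells, was also too dim to test, at 148 and 79 on the HMGA2 arrays, against 73 and 111 on the vector arrays.

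The microRNAs that LIN28B controls share a seed, bases 2 to 8 from the 5′ end, which pairs with target mRNAs. Mature sequences from RefSeq (GRCh38.p14) are shown with the seed in capitals. The let-7 targets examined further on were not chosen by a match to this seed.
hsa-let-7a-5p: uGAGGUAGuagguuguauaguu
hsa-let-7b-5p: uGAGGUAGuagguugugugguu
hsa-let-7g-5p: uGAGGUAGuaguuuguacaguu
hsa-miR-98-5p: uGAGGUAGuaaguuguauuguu

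The seed GAGGUAG is carried by 11 mature names in RefSeq, among them the 5p arms of let-7a to let-7g, let-7i and miR-98. The arrays hold messenger and long non-coding RNA, and mature let-7 was not measured. MIRLET7BHG, the host transcript of let-7b and of the third let-7a copy, was chosen after its values were seen and fell on both of its probes as deposited. One read 1409 and 1509 on the HMGA2 arrays, against 1878 and 2149 on the vector arrays (log2 -0.46, limma adjusted p = 0.0177), and lost its call after quantile normalization (-0.22, adjusted p = 0.136). The other read 311 and 246, against 514 and 566 (log2 -0.96, limma adjusted p = 0.0109), and passed after quantile normalization as well (-0.81, adjusted p = 0.00344). The antisense transcripts LIN28B-AS1 (log2 -0.38, adjusted p = 0.417) and IGF2BP2-AS1 (log2 0.93, adjusted p = 0.0532), also chosen after their values were seen, did not pass in limma as deposited, and IGF2BP2-AS1 passed after quantile normalization (0.98, adjusted p = 0.0484) and with array medians subtracted (1.15, adjusted p = 0.0021).

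H19 gave the largest changes of the axis, and both of its probes fell. This long non-coding RNA, abundant in the fetus, is the host of miR-675 and has been described as binding let-7. Probe A read 3191 and 3257 on the HMGA2 arrays, against 8338 and 6471 on the vector arrays. The HMGA2 arrays agreed closely, the vector arrays differed by 0.37 log2, and the groups did not overlap. The means were 3224 ± 46.7 and 7405 ± 1320 (SD, n = 2 each), a 2.28-fold lower level (log2 -1.19, SE 0.13, 95% interval -1.50 to -0.88, limma adjusted p = 0.000481). Probe B read 1246 and 1221 on the HMGA2 arrays, against 3709 and 4073 on the vector arrays. Its groups were also far apart, at 1234 ± 17.7 and 3891 ± 257 (SD, n = 2 each), a 3.15-fold lower level (log2 -1.66, SE 0.10, 95% interval -1.90 to -1.41, limma adjusted p = 5.53e-05). After quantile normalization the log2 differences were -1.0 and -1.42 (adjusted p = 0.00336 and 0.000575). In size, probe A's difference was exceeded by 6.78% of all tested probes and probe B's by 2.55%.

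The H19 promoter and the microRNA that H19 carries are shown because H19 changed most among the members. Neither was tested as a cause. The promoter is chr11:2001217-2001516 of GRCh38.p14, minus strand, from RefSeq, with the same span and the same use of capitals as above.
H19: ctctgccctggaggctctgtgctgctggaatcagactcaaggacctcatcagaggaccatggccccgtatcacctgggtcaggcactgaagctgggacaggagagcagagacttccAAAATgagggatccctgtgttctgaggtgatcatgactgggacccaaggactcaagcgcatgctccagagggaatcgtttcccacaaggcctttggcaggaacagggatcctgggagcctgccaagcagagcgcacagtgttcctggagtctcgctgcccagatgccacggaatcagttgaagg
hsa-miR-675-5p: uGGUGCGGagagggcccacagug
hsa-miR-675-3p: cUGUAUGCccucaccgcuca

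This window holds 1 run of 5 A or T letters and 6 CG pairs, against 17 CG pairs in the IGF2BP3 window and a median of 14 over all promoters. The 3 motifs searched above occur 0 times. The capitals in the miR-675 arms mark their seeds, which differ from that of let-7. Neither arm was measured on the arrays.

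By the distance between centred log2 values over the 4 arrays, the 5 genes of 14750 nearest to H19 probe B were ZNF267, HP1BP3, ZNF627, FBXL2 and KLHDC10. Their log2 differences ran from -1.67 to -1.60. With 4 arrays in 2 groups, such likeness reflects little more than a difference of similar size.

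Among the receptors, IGF2R fell. It carries IGF2 and enzymes tagged with mannose 6-phosphate to lysosomes and does not signal for growth. Its probe read 1476 and 1623 on the HMGA2 arrays, against 2408 and 2466 on the vector arrays. Both HMGA2 arrays lay below both vector arrays. The means were 1550 ± 104 and 2437 ± 41.0 (SD, n = 2 each), and the log2 difference was -0.65 (SE 0.11, 95% interval -0.90 to -0.41, limma adjusted p = 0.00258). It was -0.41 after quantile normalization (adjusted p = 0.0183). In size, the deposited difference of IGF2R was exceeded by 23.09% of all tested probes.

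IGF1R, the kinase through which IGF1 and IGF2 drive growth, was read by 2 probes. Both log2 differences were above 0 as deposited, neither passed, and the probes were not tested against each other. Probe A read 667 and 645 on the HMGA2 arrays, against 453 and 495 on the vector arrays, with no overlap. Its log2 difference was 0.47 (SE 0.16, 95% interval 0.10 to 0.84), with a limma adjusted p of 0.051, just above the threshold. It passed after quantile normalization (0.68, adjusted p = 0.00519) and after subtraction of array medians (0.69, adjusted p = 0.00162). Probe B read 2847 and 4236 on the HMGA2 arrays, against 2838 and 3678 on the vector arrays. Here the replicates differed more than the groups, and the log2 difference was 0.10 (SE 0.20, 95% interval -0.37 to 0.58, limma adjusted p = 0.728). The sources used here do not say which IGF1R transcripts each probe detects.

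INSR, the insulin receptor, whose fetal isoform also binds IGF2, was too dim to test on both probes. One read 158 and 53 on the HMGA2 arrays, against 45 and 82 on the vector arrays. The other read 80 and 8, against -15 and 15. Both pairs of groups overlapped.

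DICER1, the ribonuclease that cuts microRNA precursors, gave similar values in both groups. Its probe read 5486 and 5818 on the HMGA2 arrays, against 5548 and 6247 on the vector arrays, and the groups overlapped. The log2 difference was -0.06 (SE 0.10, 95% interval -0.29 to 0.17, limma adjusted p = 0.68), and 0.11 after quantile normalization.

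**Figure D3:**
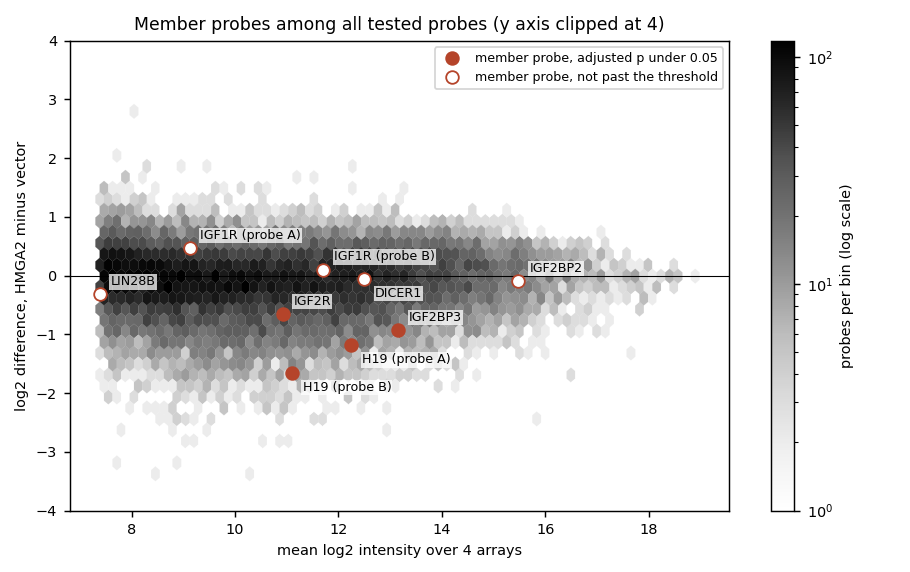
Log2 difference, HMGA2 minus vector, against mean log2 intensity over the 4 arrays. Shading counts all 23806 tested probes per bin on a log scale, filled circles are member probes past the threshold and open circles those that were not. The y axis stops at 4 in either direction. Both H19 probes lie in the lower part of the cloud, IGF2BP2 is the brightest tested member probe and LIN28B the dimmest.

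Genes around the axis were read from 8 lists, each gene by its brightest probe. Together the lists name 181 genes, of which 168 had a probe and 144 were tested. Of these, 32 rose and 40 fell, 72 calls in all, beside calls for 41.1% of the 14751 genes tested over the whole array, where 14.1% rose and 27.0% fell. The median log2 difference was -0.07 over the listed genes and -0.08 over all genes. After quantile normalization the share called over all genes was 48.2%, with 26.4% as rises and 21.8% as falls. With array medians subtracted, 3789 of the 14751 genes rose and 2504 fell.

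Of 18 genes for IGF ligands, binding proteins and their regulators, 14 were tested, 3 rose and 1 fell, with a median of 0.10 log2. After quantile normalization, and with array medians subtracted, 5 rose and 1 fell. Without the second vector array 5 rose, and without any 1 array 2 or 3 fell. IGFBP4, which binds IGFs and keeps them from their receptors, read 262 and 193 on the HMGA2 arrays, against 778 and 689 on the vector arrays (log2 -1.70, SE 0.22, limma adjusted p = 0.00107). IGFBP3, the main IGF carrier of the circulation, rose on both of its probes (log2 0.67 and 0.87, limma adjusted p = 0.00822 and 0.00803). STC2, an inhibitor of the protease that cuts IGFBP4, read 367 and 508 on the HMGA2 arrays, against 122 and 267 (log2 1.26, limma adjusted p = 0.0444). The other STC2 probe read 97 and 26, against -7 and 35, and was too dim to test. IGF1 rose on its brighter probe, at 35915 and 33653 against 18325 and 17731 (log2 0.95, SE 0.08, limma adjusted p = 0.000162). Its other probe went the opposite way, at 415 and 363 on the HMGA2 arrays, against 548 and 657 (log2 -0.63, limma adjusted p = 0.034, and -0.41 with adjusted p = 0.0541 when array medians are subtracted), so no single direction can be given for IGF1. IGFBP2, a binding protein made by many carcinomas, did not pass (log2 -0.31, adjusted p = 0.0774). IGFBP6 read 1590 and 7 on the HMGA2 arrays, against 976 and 1024, and its lone low value left it without a call.

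The list of insulin and IGF receptor signalling held 27 tested genes, of which 10 rose and 7 fell, with a median of 0.21 log2. After quantile normalization 14 rose and 7 fell, and with array medians subtracted 14 and 5. Without the second vector array 6 rose and 7 fell. GRB10, an adaptor that binds and restrains IGF1R and INSR, read 23198 and 32126 on the HMGA2 arrays, against 10241 and 11561 on the vector arrays (log2 1.33, SE 0.15, limma adjusted p = 0.000604). PIK3CA, the catalytic subunit of phosphoinositide 3-kinase, read 338 and 400, against 1224 and 1281 (log2 -1.77, limma adjusted p = 0.000181). RICTOR, the scaffold of mTOR complex 2, fell by 1.79 log2 and the regulatory subunit PIK3R3 by 1.19. Second probes of RICTOR (log2 -0.25) and PIK3R3 (-0.21) did not pass. Outside the rule for named genes, and chosen after their values were seen, the receptor substrates IRS1 (0.96) and IRS2 (-1.09) went opposite ways.

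Of 26 tested genes of microRNA processing and let-7 control, 7 rose and 8 fell, with a median of -0.09 log2. The counts were 8 and 6 after quantile normalization, with a median of 0.09, and 10 and 3 with array medians subtracted, with a median of 0.13. ADAR, which edits double-stranded RNA, fell (log2 -1.16, SE 0.15, limma adjusted p = 0.000964). PRKRA, a partner of DICER1, read 2827 and 3336 on the HMGA2 arrays, against 7076 and 5789 on the vector arrays (log2 -1.06, limma adjusted p = 0.000847). TNRC6B, a scaffold of the silencing complex, fell on its brightest probe (log2 -0.99) and on another (-2.06), while its remaining probe (-0.28) did not pass. KHSRP, which promotes let-7 processing, rose by 0.78 log2 (limma adjusted p = 0.000976). TARBP2, the other double-stranded RNA-binding partner of DICER1, rose by 0.61 log2 and was named after its value was seen.

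Of 30 let-7 targets, listed from general knowledge with earlier results of these data known, 23 were tested. Among those, 5 rose and 5 fell, with a median of -0.12 log2, beside -0.08 over all genes. After quantile normalization 6 rose and 4 fell, with a median of 0.08, and with array medians subtracted 5 and 4. The count of rises was 2 without the first vector array, 3 without the second and 3 without the first HMGA2 array. MYC read 2889 and 3699 on the HMGA2 arrays, against 11598 and 12483 on the vector arrays (log2 -1.88, SE 0.13, limma adjusted p = 7.95e-05). The phosphatase CDC25A fell by 1.48 log2 on one probe and by 0.44 on the other, which lost its call after quantile normalization (-0.20, adjusted p = 0.114). E2F5 fell by 1.10 log2 and ARID3B by 0.85. HMGA1, the paralog of HMGA2, rose by 0.46 log2 (limma adjusted p = 0.00396). The list held changes in both directions.

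Among 21 tested mRNAs described as bound by IGF2BP proteins, 5 rose and 6 fell, with a median of -0.07 log2, and quantile normalization gave 7 rises, 6 falls and a median of 0.055, against 5 rises and 3 falls with array medians subtracted. MYC belongs to this list too. CD44, a hyaluronan receptor whose mRNA IGF2BP proteins bind, read 473 and 350 on the HMGA2 arrays, against 2708 and 2832 on the vector arrays (log2 -2.77, SE 0.16, limma adjusted p = 4.81e-05). Its other probe gave -0.18 and did not pass. CTNNB1, which encodes beta-catenin, read 92182 and 94750, against 158873 and 158076 (log2 -0.76, limma adjusted p = 0.000229). CCND3, a D-type cyclin, rose by 0.96 log2.

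Of 14 tested imprinted growth genes and their regulators, 2 rose and 3 fell, with a median of -0.22 log2. The counts were 3 and 4 after quantile normalization, and 4 and 3 with array medians subtracted. Without either HMGA2 array, or without the first vector array, 1 rose. CDKN1C, an inhibitor of cyclin-dependent kinases in the imprinted cluster next to H19 and IGF2, read 5460 and 6016 on the HMGA2 arrays, against 20682 and 17836 on the vector arrays (log2 -1.74, SE 0.10, limma adjusted p = 4.97e-05). CTCF, which binds the control region between H19 and IGF2, fell by 1.48 log2 (limma adjusted p = 0.000247). PLAGL1, an imprinted zinc finger gene known in mouse as a regulator of H19 and Igf2, fell by 1.15 on its brighter probe, while the dimmer gave 0.20 and did not pass. GRB10, also imprinted, rose as given above. PHLDA2 read 71271 and 68183 on the HMGA2 arrays, against -23 and 70669 on the vector arrays. That 1 value below 0 gave it a log2 difference of 8.03 with no call (limma adjusted p = 0.185).

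Only 6 of 18 oncofetal antigens were bright enough to test, and 1 rose and 3 fell, against 2 and 3 under both other scalings. TPBG, the trophoblast glycoprotein, fell by 1.27 log2, SPINK1 by 1.44 and the growth factor gene MDK by 0.63. The 1 that rose was HMGA1. AFP, SALL4, CEACAM5 and CEACAM6 were among the 12 too dim to test.

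Genes of mannose 6-phosphate sorting, the pathway in which IGF2R acts, had 19 tested members, of which 2 rose and 8 fell, with a median of -0.14 log2. After quantile normalization 3 rose and 6 fell, and with array medians subtracted 2 and 5. AP1G1, a subunit of the adaptor that loads the receptors into vesicles, fell on its brighter probe by 2.08 log2 (SE 0.09, limma adjusted p = 2.01e-05). Its other probe rose by 0.55 (limma adjusted p = 0.00357), so no single direction can be given. GUSB fell by 0.87 on one probe and gave -0.01 on the other. The proteases CTSL (1.11) and CTSD (0.90), cargo of the pathway, rose.

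**Figure D4:**
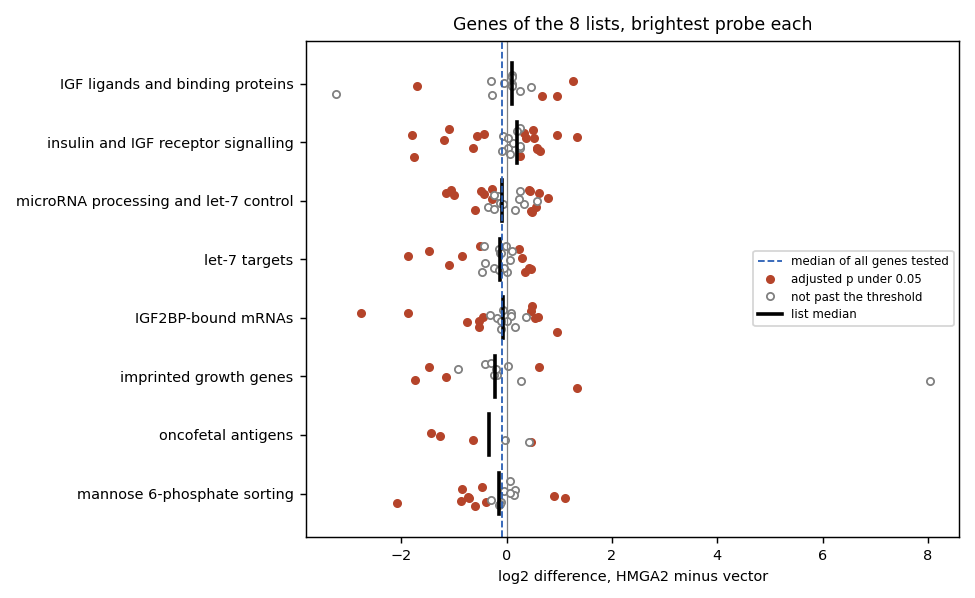
Log2 difference, HMGA2 minus vector, of each tested gene in the 8 lists by its brightest probe. Filled points passed an adjusted p of 0.05, open points did not, black bars are list medians and the dashed line is the median of all 14751 genes. List medians ran from -0.33 (oncofetal antigens, 6 genes) to 0.21 (insulin and IGF receptor signalling), and the open point at 8.03 is PHLDA2.

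The genes lying beside the 3 called members were also read, taking the 4 nearest tested genes on either side in RefSeq's order. This comparison was chosen after the members' values were seen. Around IGF2BP3 on chromosome 7, 5 of 8 neighbours fell and 0 rose, with a median of -0.59 log2, beside falls in 27.0% of all genes. The splicing regulator gene TRA2A (-2.11) and FAM221A (-2.02) fell most, and KLHL7 (-0.61), NUP42 (-0.56) and MALSU1 (-0.49) fell less. After quantile normalization 6 fell, the same 5 and STK31 (-0.51). With array medians subtracted NUP42 (-0.34, adjusted p = 0.0994) and MALSU1 (-0.27, adjusted p = 0.21) lost their calls. Around H19 on chromosome 11, 1 of 8 neighbours fell and 0 rose, with a median of 0.05. The 1 that fell was ASCL2 (-1.46), a transcription factor gene of intestinal stem cells. The nearest tested genes, MRPL23 (-0.14) and INS (0.26), did not pass as deposited. TNNI2, TNNT3 and INS passed as rises under both other scalings, at 0.49, 0.57 and 0.49 after quantile normalization, which makes 3 rises and 1 fall there. Around IGF2R on chromosome 6, 0 of 8 fell and 1 rose, the cholesterol synthesis gene ACAT2 (0.91), with a median of 0.015. SLC22A3 also passed as a rise after quantile normalization (0.79, adjusted p = 0.00938) and with array medians subtracted (0.82, adjusted p = 0.00158), which makes 2 rises. Over all 14751 genes tested, 14.1% rose as deposited, and after quantile normalization 26.4% rose and 21.8% fell. With array medians subtracted 3789 of them rose and 2504 fell. Whether the 3 neighbourhoods differ was not tested.

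**Figure D5:**
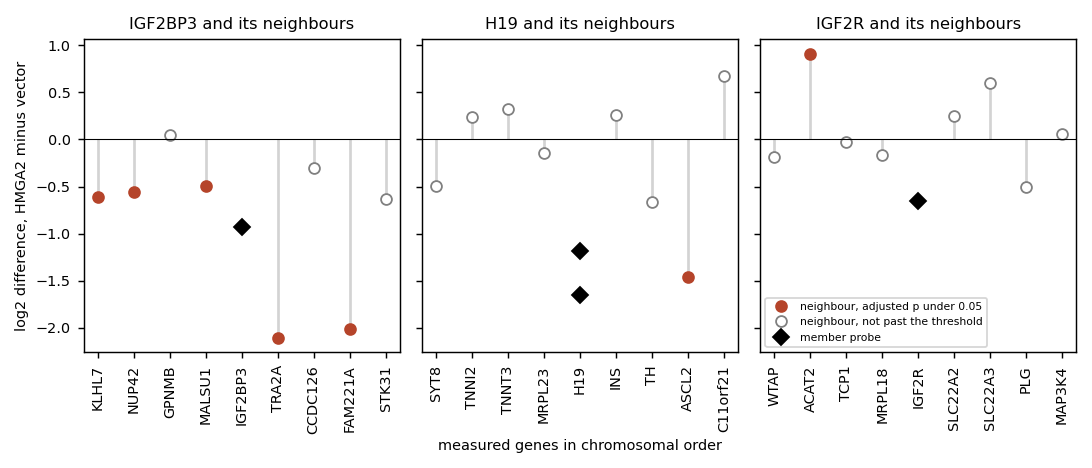
Log2 difference, HMGA2 minus vector, of the 4 nearest tested genes on either side of IGF2BP3, H19 and IGF2R, in chromosomal order and not to scale. Diamonds are the member probes, filled circles are neighbours past an adjusted p of 0.05 and open circles those that were not. Filled circles lie on both sides of IGF2BP3, against 1 beside H19 and 1 beside IGF2R.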

How the data were processed

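Per the labels' protocols, antisense RNA was made from total RNA by linear amplification, and its dye was Cy5. Each array has a column of linear intensities in the deposited table. Scanner, background correction and normalization behind the deposited intensities are not given in the sources used here. Groups and replicate numbers came from the sample titles. In the platform annotation 24740 probes have a single gene, 977 have more and 6024 have no gene. RefSeq (GRCh38.p14) gave current symbols for 1948 probes with an older one. The members and lists were chosen with earlier results of these data known.

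Intensities under 1 were raised to 1 and log2-transformed without further scaling. The 23806 probes at or above the 25th percentile of mean log2 (7.39, an intensity of 167) entered 1 fit in limma 3.58.1 (R 4.3.3; lmFit and eBayes, trend on). Adjusted p-values are limma's, by Benjamini-Hochberg over all these probes, and calls are those under 0.05. The fit was also run on simulated data with 200 or no probes changed. Those data were drawn from limma's own variance model, so they cannot show how well it holds for these arrays. Named were all member probes, HMGA2, up to 4 genes per list with the largest called differences, and the 5 genes nearest to the most changed member. Listed genes without a call, IGFBP2, IGFBP6 and PHLDA2 among them, were named outside this rule. Marker genes, neighbours and antisense or host transcripts were named after their values were seen. The number of arrays limits the precision. Alternatives changed scaling, background, filter, offset, variance model, threshold, unit, pairing and arrays.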

Additional observations from a re-analysis of the deposited data

How the results depend on the processing

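The falls of IGF2BP3, both H19 probes and IGF2R kept their direction in all 63 values computed for them over 16 alternative settings. Settings that changed only the filter, variance model, threshold, unit or pairing left the difference itself as it was, so its direction could not change there. The falls stayed past the threshold in each setting that kept all 4 arrays. The number of member probes called was 3 with 1 brightest probe per gene in the fit, where H19 has 1 probe, and 4 or 5 otherwise. IGF1R probe A was the fifth: it passed with quantile normalization, alone (0.68) or after normexp (0.63), with array medians subtracted (0.69), and at 0.47 without the intensity trend, with the robust variance model and with the crossed pairing. Over all probes 9327 passed, against 5994 genes with 1 probe per gene (fewer features tested) and 5992 at a threshold of 0.01. Without 1 array the count over all probes ran from 8275 to 8805. The total of list genes called stayed within 1.5 times its value of 72, but single lists moved more, as given with each list for scaling and left-out arrays. Without the intensity trend 1 let-7 target rose, against 5, and 5 genes of microRNA processing fell, against 8. The same setting gave 7426 calls over all probes, against 9327, and 57 list genes, against 72.

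Signs changed for probes that had no call. IGF2BP2 became 0.13 with array medians subtracted. DICER1 became 0.11 with quantile normalization, 0.16 with array medians subtracted and 0.11 with normexp. Leaving out 1 array in turn, DICER1 ran from -0.15 to 0.026, LIN28B from -0.69 to 0.047 and IGF1R probe B from -0.18 to 0.39. These fits assume that the lone array of a group varies like the other group's arrays. The cause was not tested.

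Same-numbered arrays of the groups deviated from their group means with r = -0.21 across probes. This cannot decide whether the arrays were paired, because shifts of a whole array also enter that value. The labels do not state a pairing. With the replicate number as a replicate block 4 member probes and 9306 probes passed, and with the crossed pairing, chosen after seeing the data, 5 and 11706.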

Other observations

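IGFBP6 and PHLDA2 each had a lone low value on 1 array. To see how common this is, probes were counted that read at most 50 on 1 array and above 500 on the other 3, a criterion chosen after seeing the data. There were 0 and 3 such probes on the arrays labelled HMGA2, against 4 and 7 on those labelled vector, and 0 of them were member probes.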
